A study of Arabidopsis thaliana with 16 samples.

Results

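The response of Arabidopsis leaves to spaceflight under short days was compared between FG plants, which carry an inducible flowering gene, and wild-type (WT) plants. The comparison is the interaction of genotype and spaceflight: the difference between space and ground in FG minus the same difference in WT, on the log2 scale. It rests on 8 of the 16 arrays of the series, chosen by their daylength label, with 2 arrays in each of 4 groups. These are FG plants in space (FG-SD-sp), FG plants on the ground (FG-SD-gr), WT plants in space (WT-SD-sp) and WT plants on the ground (WT-SD-gr). A positive interaction means that FG went further up, or less far down, in space than WT did.

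All 4 groups are Columbia (Col-0) plants kept under SD, 8 h of light and 16 h of dark, in a growth unit on a recoverable satellite or in a ground unit set to its recorded temperature and humidity. FG plants are homozygous offspring of a cross and carry pHSP::FT and pHSP:GFP, the coding sequences of FT and of green fluorescent protein each behind the promoter of the heat shock gene HSP17.4. WT plants carry neither transgene, so an effect of FT and an effect of GFP, of the insertions or of the cross cannot be told apart. Both genotypes were heated early in the flight, in space and on the ground, to switch the transgenes on, and leaves were fixed after landing. Each array reads RNA of rosette leaves, and the study describes each group as leaves from 2 plants. The p-values below therefore measure only the spread between the 2 arrays of a group, pooled over the groups.

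FT is the florigen, a small protein made in leaf veins that travels to the shoot tip and starts flowering there. In Arabidopsis it is normally induced by long days through CONSTANS, and it acts on the MADS-box genes SOC1 and FUL, after which the genes of the floral organs (the SEPALLATA genes, PI, AP3) come on. In short days the native gene is nearly silent. A leaf that meets a pathogen makes salicylic acid, and SARD1, WRKY70, PAD4 and the PR genes act at different steps of that defence.

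The arrays of the ground groups differed more between replicates than those of the space groups. The replicate SD over all tested probe sets was 0.40 on the log2 scale in FG in space, 0.61 in FG on the ground, 0.28 in WT in space and 0.74 in WT on the ground. Present calls covered 52.1 to 58.6% of probe sets. The GAPDH control probe sets read 0.32 to 0.97 higher at the 3′ end than at the 5′ end (log2) on the 4 space arrays and 1.12 to 1.52 higher on the 4 ground arrays. The same measure from the actin probe sets overlapped, at 3.04 to 3.36 on the space arrays and 3.07 to 3.82 on the ground arrays. The part of RNA quality in the results was not tested. All 8 leaf mesophyll markers were present on each of the 8 arrays, while 1 to 3 of 11 root markers and 0 to 2 of 9 flower organ markers were.

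The transgene and its promoter gene were read first. FT (AT1G65480) had signals of 73.5 and 206 in FG in space and 178 and 812 in FG on the ground, all with present calls. In WT it had 28.2 and 40.2 in space and 4.2 and 19.4 on the ground, all absent and under the floor of 75 to which low signals were raised. Every FG array was above every WT array. The labels say that FG carries pHSP::FT and give no level of its RNA. It is also not known here whether the probes of this set lie in the coding sequence that the transgene carries. In FG the space and ground arrays overlapped (-1.61 ± 0.65 on the log2 scale, SE, limma adjusted p = 0.263), with FG-SD-sp replicate 1 (73.5) also raised to 75. WT was under the floor in both environments, so no WT response can be given and the interaction has no defined size. Its fitted value is this same FG difference (95% interval -3.65 to 0.42). HSP17.4 (AT3G46230), a small heat shock protein whose promoter drives both transgenes, read 88.0 and 7.9 in FG in space, 76.9 and 42.5 in FG on the ground, 25.9 and 26.3 in WT in space and 1790.1 and 42.4 in WT on the ground. It was high on WT-SD-gr replicate 1 alone and did not pass the filter on low signals.

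No probe set passed the test for an interaction. Of 14286 probe sets tested, 0 (a background of 0%) had a limma Benjamini-Hochberg adjusted p under 0.05 and a difference of at least 2-fold. The smallest adjusted p was 0.152. Without the adjustment, 439 probe sets (3.07%) reached p under 0.05 and 2-fold, of which 207 were positive (1.45%) and 232 negative (1.62%). The members named below as past the unadjusted threshold belong to those 439, and none of them is a call. The split between positive and negative moved with the scaling of the arrays, to 298 and 154 with arrays centred on their medians, to 247 and 177 after quantile normalization, and to 162 and 244 when arrays were scaled on their spike-in controls. The interaction had a median of -0.05 over all probe sets and its standard error a median of 0.50, with a 5th percentile of 0.30 and a 95th of 1.18.

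The 2 genotypes answered spaceflight with largely parallel changes. Against their ground groups, 131 probe sets were called in FG (0.917%) and 267 in WT (1.87%), and 56 were called in both, which is 42.7% of the FG calls and 21.0% of the WT calls. With 1 array left out, the FG count ran between 24 (without FG-SD-sp replicate 1) and 251 (without either WT-SD-gr array), and the WT count between 2 (without WT-SD-sp replicate 1) and 727 (without WT-SD-gr replicate 2). A fit on the 8 SD arrays alone called 0 probe sets in FG and 1 in WT. All 56 moved the same way, and 0 were called in opposite directions. Of the 267 called in WT, 256 had the same sign in FG, and of the 131 called in FG, 121 had the same sign in WT. The share of all probe sets with the same sign in both genotypes was not counted beside them. Across the 14286 probe sets the response of FG and that of WT, which share no array, had a Pearson r of 0.61 (across probe sets, which are not independent replicates). Both space arrays stood above both ground arrays in both genotypes for 2032 probe sets (14.2%), and below for 1034 (7.24%). They stood apart in opposite ways for far fewer, with 149 (1.04%) above in FG and below in WT, and 180 (1.26%) below in FG and above in WT.

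**Figure D1:**
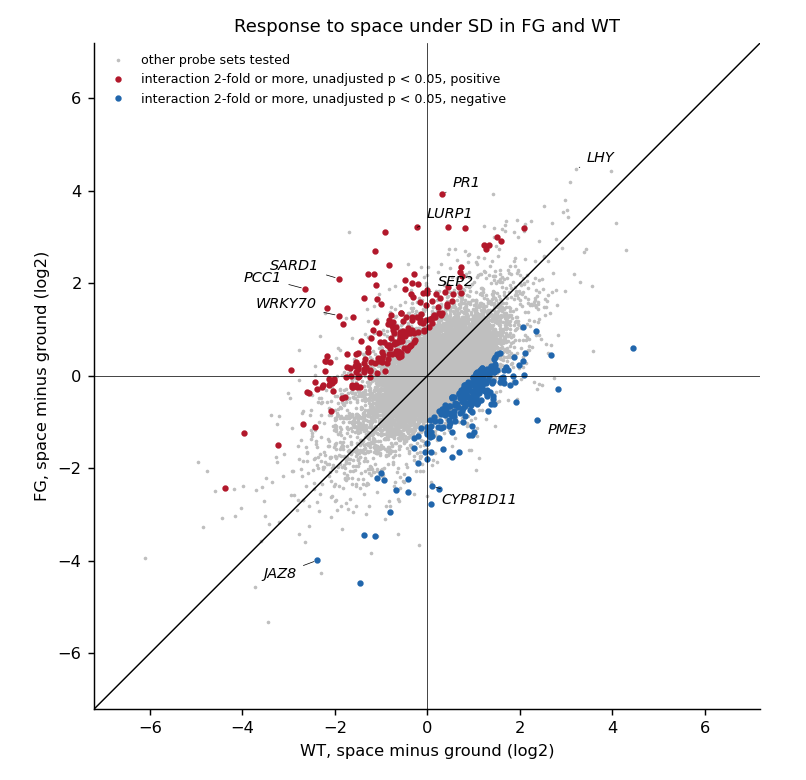
Difference between space and ground under SD on the log2 scale, in FG (y axis) against WT (x axis), for each of the 14286 probe sets tested. Coloured points are the 439 with an interaction of at least 2-fold and an unadjusted p under 0.05 (red positive, blue negative), and the line marks equal responses. The 2 responses had a Pearson r of 0.61, and 1500 probe sets had responses at least 2-fold apart.

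Read the other way, as the genotypes set against each other in each environment, FG and WT lay further apart on the ground than in space. The FG minus WT difference had an SD over probe sets of 0.42 in space and 0.60 on the ground (log2), and the 2 sets of differences, which share no array, had an r of 0.24. At an unadjusted p under 0.05 and 2-fold, 172 probe sets (1.20%) differed between FG and WT in space and 646 (4.52%) on the ground. The replicate spread was also wider on the ground. Only 2 probe sets were called in each environment (0.0140% each). In space these were SEP2, described next, and a probe set shared by AT1G02590 and AT1G04580 that was called absent on all 8 arrays. On the ground they were CYP81D11 and GLIP1. Without FG-SD-gr replicate 1 the count on the ground was 212, and without FG-SD-gr replicate 2 it was 0.

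SEP2 (AT3G02310), a MADS-box gene that gives floral organs their identity together with its sister SEPALLATA genes, was detected in 1 of the 4 groups. Its signals were 266 and 252 in FG in space, 19.5 and 4.5 in FG on the ground, 4.2 and 13.8 in WT in space and 34.5 and 52.3 in WT on the ground. It had present calls on both FG space arrays and absent calls under the floor on the other 6. SEP2 rose in FG in space by at least 1.79 on the log2 scale (adjusted p = 0.00136), and it was higher in FG than in WT in space by at least 1.79 (adjusted p = 0.00545). Both adjusted p-values lean on groups set to 75 on both arrays, which add no spread between replicates (SE 0.16). Of the SD groups, only FG in space met the filter on low signals, so SEP2 could enter the test through the group where it was high. With no floor, FG against WT in space had 0 calls. No WT response can be given, since both WT groups were under the floor, so the interaction of SEP2 has no defined size. Its fitted value rests on signals set to 75 in 3 of the 4 groups, and its adjusted p, 0.152, ran between 1.26e-07 and 1.00 over the alternatives.

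PI (AT5G20240), a MADS-box gene that specifies petals and stamens, was the other of 9 flower organ markers that passed the filter. It had signals of 498 and 358 in FG in space, 146 and 74.0 in FG on the ground, 83.5 and 161 in WT in space and 284 and 47.5 in WT on the ground. Both FG space arrays were above the other 6, while the WT groups overlapped. Its interaction of 2.34 ± 0.86 passed the unadjusted threshold only (adjusted p = 1.00). The other 7 flower organ markers did not pass the filter. Among them, AP3, SEP1, SEP3 and SHP1 were absent on all 8 arrays, and AG was present on WT-SD-gr replicate 1 alone, at 57.3 and so under the floor. The summed signal of the 9 markers was 919 and 734 in FG in space, 239 and 230 in FG on the ground, 263 and 376 in WT in space and 455 and 185 in WT on the ground. SEP2 and PI make up most of the FG space sums, and the remaining markers together were not highest there.

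SOC1 and FUL, on which FT acts, were higher on every FG array than on every WT array, and neither passed the test for an interaction. SOC1, which integrates flowering signals at the shoot tip, read 1022 and 1184 in FG in space, 494 and 753 in FG on the ground, 335 and 315 in WT in space and 164 and 237 in WT on the ground. FG was above WT by 1.76 ± 0.30 in space (adjusted p = 0.317) and 1.63 ± 0.30 on the ground (adjusted p = 0.216), neither of which is a call. The interaction was 0.13, with a 95% interval of -0.80 to 1.06. FUL, a MADS-box gene induced as plants turn to flowering, read 680.2 and 1170.0 in FG in space, 633 and 679.8 in FG on the ground, 314 and 191 in WT in space and 9.8 and 241 in WT on the ground. Its interaction of -0.42 had a wide interval of -2.78 to 1.94. SEP4 read 119 and 164 in FG in space, 203 and 281 in FG on the ground, 174 and 94.6 in WT in space and 59.2 and 117 in WT on the ground, with an interaction of -1.23 (95% interval -2.52 to 0.06). SOC1, FUL and SEP4 were picked out after their values were seen. Of 8 floral integrators and meristem identity genes tested, 0 passed the unadjusted threshold (median 0.13, against -0.05 over all probe sets).

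**Figure D2:**
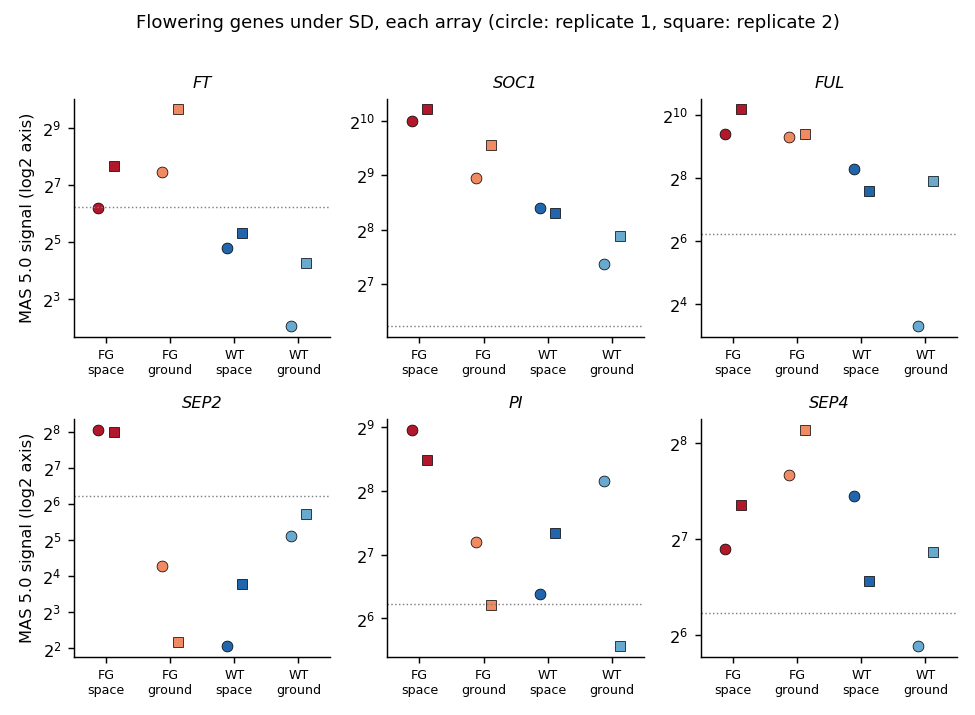
MAS 5.0 signal of 6 flowering genes on each of the 8 arrays, on a log2 axis, by group (circle, replicate 1; square, replicate 2). The dotted line is the floor of 75. FT, SOC1 and FUL are higher on all 4 FG arrays than on all 4 WT arrays, SEP2 is above the floor only on the 2 FG space arrays, and PI is highest there.

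Genes of the salicylic acid defence had the highest median interaction of the lists with at least 8 genes tested, although the morning clock, leaf mesophyll and heat shock lists had a larger share of positive members. Of 28 genes on the list 26 were tested, and 23 of them had a positive interaction (46.2% of all probe sets were positive), with a median of 1.53. Past the unadjusted threshold were 8 positive members and 0 negative ones, against 1.45% and 1.62% of all probe sets. The median response to space was 0.30 in FG and -0.94 in WT. Set against WT, FG had a median difference of 0.05 in space and -1.48 on the ground, so the genotypes lay apart on the ground. The mean log2 signal of the list was 9.98 and 9.46 in FG in space, 9.56 and 8.52 in FG on the ground, 9.16 and 9.73 in WT in space, and 10.70 and 10.34 in WT on the ground.

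SARD1 (AT1G73805), a transcription factor that switches on salicylic acid synthesis, had signals of 1228 and 922 in FG in space, 339.7 and 182 in FG on the ground, 348 and 493 in WT in space and 1778 and 1371 in WT on the ground. Space was above ground in FG and below it in WT, with no overlap in either genotype. Its response was 2.1 ± 0.45 in FG (adjusted p = 0.0594) and -1.92 ± 0.45 in WT (adjusted p = 0.0569). The interaction was 4.02 ± 0.64 (95% interval 2.61 to 5.42, adjusted p = 0.309). A separate probe set of the same gene gave 606 and 477 in FG in space, 179.9 and 76.9 in FG on the ground, 209.8 and 383 in WT in space and 863 and 559.5 in WT on the ground. There SARD1 rose in FG by 2.19 (adjusted p = 0.0431), WT had -1.29 (adjusted p = 0.135), and the interaction was 3.49 ± 0.60.

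WRKY70 (AT3G56400), a transcription factor that promotes salicylic acid responses and restrains jasmonate responses, read 2905 and 2732 in FG in space, 1769 and 739 in FG on the ground, 904 and 1099 in WT in space and 3299 and 4287 in WT on the ground. It fell in WT in space (a log2 difference of -1.92, adjusted p = 0.0456), and its FG difference was 1.30 (adjusted p = 0.164), with all space arrays above ground in FG and below ground in WT. The interaction was 3.22 ± 0.59 (95% interval 1.92 to 4.51, adjusted p = 0.431). Its close relative WRKY54 followed the same order, with 426 and 264 in FG in space, 147 and 46.5 in FG on the ground, 179 and 218 in WT in space and 421 and 626 in WT on the ground. No FG ground array had both a present call and a signal above the floor, so its interaction was at least 3.05. WRKY54, PR1, PAD4 and WRKY46 were picked out after their values were seen. WRKY46 read 775 and 386 in FG in space, 1997 and 824 in FG on the ground, 269 and 385 in WT in space and 3065 and 8194 in WT on the ground. Its difference was -1.23 in FG (adjusted p = 0.412) and -3.96 in WT, where it fell (adjusted p = 0.0240), for an interaction of 2.73 ± 0.94.

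PCC1 (AT3G22231), a small pathogen-induced protein also linked to flowering, had the highest interaction on the list, 4.52 ± 1.23, with signals of 6004 and 1465 in FG in space, 1542 and 424 in FG on the ground, 713 and 881 in WT in space and 3813 and 6469.7 in WT on the ground. Both WT ground arrays were above both WT space arrays, but in FG the groups overlapped. LURP1 (AT2G14560), which is needed for defence against an oomycete, read 8349 and 5424 in FG in space, 811 and 653 in FG on the ground, 1627 and 2717 in WT in space and 1283 and 4689 in WT on the ground. It rose in FG in space by 3.21 ± 0.60 (adjusted p = 0.0373), while the WT groups overlapped, and the interaction was 3.43 ± 0.85. PR1, the common marker of salicylic acid signalling, read 14711 and 18214 in FG in space, 754 and 1537 in FG on the ground, 1428 and 6230.5 in WT in space and 6924 and 821 in WT on the ground, with FG space above FG ground (3.93, adjusted p = 0.0717), the WT groups overlapping and an interaction of 3.60 ± 1.27. PAD4, a lipase-like partner of EDS1, read 452 and 204 in FG in space, 360.2 and 165 in FG on the ground, 275 and 481 in WT in space and 1339 and 2097 in WT on the ground, with WT space below WT ground (-2.20, adjusted p = 0.0979), the FG groups overlapping and an interaction of 2.52 ± 0.91.

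**Figure D3:**
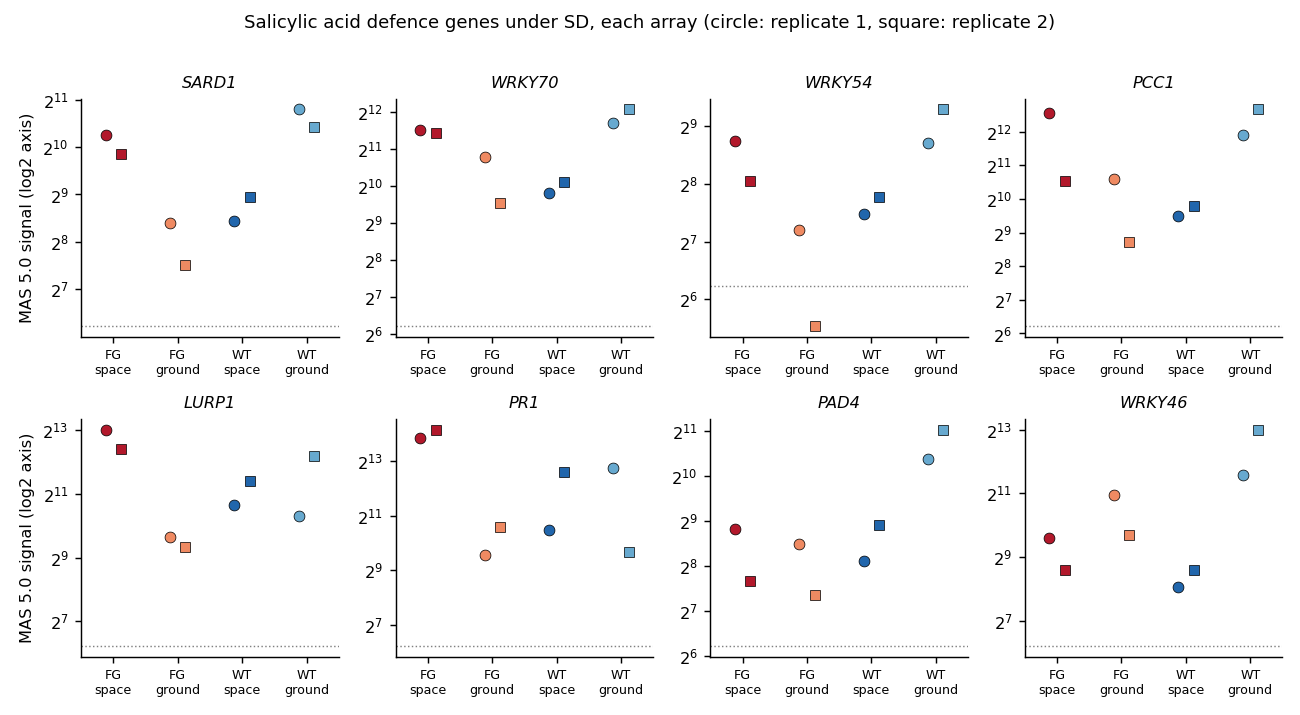
MAS 5.0 signal of 8 salicylic acid defence genes on each of the 8 arrays, on a log2 axis, by group (circle, replicate 1; square, replicate 2). The dotted line is the floor of 75. For SARD1, WRKY70 and WRKY54 the space arrays lie above the ground arrays in FG and below them in WT.

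Leaving out 1 array kept the median of the salicylic acid list positive, between 1.01 and 2.41. Without FG-SD-gr replicate 1, 22 probe sets became calls, among them both SARD1 sets (4.47 and 4.10) and WRKY70 (3.85). That fit takes FG on the ground from replicate 2, the lower of the pair for SARD1 and WRKY70. Without FG-SD-gr replicate 2 no probe set was called, and the interactions were 3.56 and 2.87 for SARD1 and 2.59 for WRKY70.

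Families that sit beside the salicylic acid genes in defence were taken by their annotation titles. Over all probe sets tested, 46.2% were positive, 1.45% passed the unadjusted threshold upward and 1.62% downward. Of 55 resistance proteins of the NBS-LRR class, intracellular receptors for pathogen effectors, 47 were positive, 5 passed the unadjusted threshold upward and 0 downward (median 0.47). The largest among those that passed was AT5G45000 (2.17), with 330.2 and 177 in FG in space, 142 and 105 in FG on the ground, 155 and 172 in WT in space and 312 and 438 in WT on the ground. Of 28 cysteine-rich receptor-like kinases, 22 were positive and 3 passed (CRK2 at 1.70, CRK18 at 1.35 and CRK3 at 1.21), with a median of 0.61. CRK2 read 1092 and 1415 in FG in space, 1443 and 820.4 in FG on the ground, 857 and 810.0 in WT in space and 1772 and 3181 in WT on the ground, highest on the WT ground arrays. Of 44 WRKY transcription factors 32 were positive and 4 passed, namely WRKY70, WRKY54, WRKY46 and WRKY58. WRKY70, WRKY54 and WRKY46 were already given above among the salicylic acid defence genes, so they are not a separate result. WRKY58 (AT3G01080) was not above the floor in WT in space, with 192 and 135 in FG in space, 147 and 179.7 in FG on the ground, 46.7 and 68.3 in WT in space and 325 and 199.7 in WT on the ground, so its fall in WT was a log2 difference of -1.76 or lower (adjusted p = 0.0220) and its interaction at least 1.75. Without WT-SD-gr replicate 2 the median of the kinases dropped to 0.03.

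Genes of the morning clock had a higher median response to space in FG than in WT, 0.93 in FG and 0.28 in WT on the log2 scale. All 14 morning clock genes tested had a positive interaction (median 0.99), against 46.2% of all probe sets. Past the unadjusted threshold were 2 of them, LNK3 and LNK2 (1.45% of all probe sets passed upward). LNK3 (AT3G12320), a coactivator of the clock, read 2876 and 3557 in FG in space, 549 and 374 in FG on the ground, 2901 and 2546 in WT in space and 1268 and 1074 in WT on the ground. It rose in FG in space by 2.82 ± 0.31 (adjusted p = 0.00338), against 1.22 in WT (adjusted p = 0.0686). The central clock gene LHY, picked out after its values were seen, read 2606 and 2575 in FG in space, 182 and 17.2 in FG on the ground, 1843 and 1518 in WT in space and 146 and 226 in WT on the ground. LHY rose in space in both genotypes, by 4.47 in FG (adjusted p = 0.00192) and 3.21 in WT (adjusted p = 0.0147), and the difference of 1.26 had an interval of -0.12 to 2.64. LNK2 read 1512 and 1803 in FG in space, 819.9 and 278 in FG on the ground, 1046 and 950.4 in WT in space and 637 and 1786 in WT on the ground, with an FG rise that was not called (1.79, adjusted p = 0.176) and overlapping WT groups.

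In the photoperiod pathway, 10 of 12 genes were positive (median 0.41) and 3 passed, against 46.2% and 1.45% of all probe sets. CDF2 (AT5G39660), a DOF repressor of CONSTANS, read 1030.1 and 1261 in FG in space, 162 and 182 in FG on the ground, 1054 and 875 in WT in space and 393 and 409.7 in WT on the ground. CDF2 rose in both, by 2.73 in FG (adjusted p = 0.00192) and 1.26 in WT (adjusted p = 0.0428). COL1 (AT5G15850), a relative of CONSTANS, read 3356 and 3329 in FG in space, 411 and 429 in FG on the ground, 4162 and 2271 in WT in space and 1425 and 831 in WT on the ground, and rose by 2.99 in FG (adjusted p = 0.00234) and 1.50 in WT (adjusted p = 0.0404). CDF3 (AT3G47500) read 1686 and 1794 in FG in space, 727 and 362 in FG on the ground, 1733 and 1353 in WT in space and 1141 and 943 in WT on the ground and rose in FG (1.76, adjusted p = 0.0284), against 0.56 in WT (adjusted p = 0.333). PRR5 (AT5G24470), the evening clock repressor and the only one of 9 evening clock genes past the unadjusted threshold, read 1847 and 1581 in FG in space, 152 and 228 in FG on the ground, 1913 and 1379 in WT in space and 358 and 411 in WT on the ground. PRR5 rose by 3.20 in FG (adjusted p = 0.00136) and 2.08 in WT (adjusted p = 0.0147). For LNK3, CDF2, COL1, CDF3 and PRR5 the FG and WT space arrays overlapped, and both FG ground arrays lay below both WT ground arrays. TEM2 (AT1G68840), a repressor of FT and the only one of 8 floral repressors that passed, read 2212 and 2059 in FG in space, 1577 and 1123 in FG on the ground, 1631 and 2544 in WT in space and 2101 and 5419 in WT on the ground, with overlapping groups in WT.

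The median of the morning clock list was 0.35 without FG-SD-gr replicate 2 and 1.69 without FG-SD-gr replicate 1. Its mean log2 signal was 9.46 and 9.64 in FG in space, 8.61 and 7.69 in FG on the ground, 9.40 and 9.21 in WT in space, and 8.68 and 8.97 in WT on the ground. The paper gives the time of landing and says that the space plants were fixed at the landing site after the unit was received there. It gives no time of day of fixation for the ground groups.

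On the negative side, the 2 genes called between genotypes on the ground led the unadjusted order. CYP81D11 (AT3G28740), a cytochrome P450 induced by jasmonate and by foreign chemicals, read 82.0 and 16.0 in FG in space, 454 and 374 in FG on the ground, 86.0 and 76.4 in WT in space and 32.3 and 47.9 in WT on the ground. It was higher in FG than in WT on the ground by at least 2.46 (adjusted p = 0.0281) and fell in FG in space (-2.39 ± 0.27 on the log2 scale, adjusted p = 0.00354). The WT ground arrays were under the floor, so the interaction was -2.51 or lower (adjusted p = 0.290). GLIP1 (AT5G40990), a secreted lipase of disease resistance, was detected above the floor in FG on the ground only, at 193 and 218, against 25.6 and 14.8 in FG in space, 26.1 and 43.1 in WT in space and 47.1 and 31.9 in WT on the ground. It fell in FG in space (a log2 difference of -1.45 or lower, adjusted p = 0.00576), was higher in FG than in WT on the ground by at least 1.45 (adjusted p = 0.0372), and no WT response can be given. As for SEP2, both adjusted p-values of GLIP1 lean on groups set to the floor on both arrays. Of the SD groups, only FG on the ground, where GLIP1 was high, met the filter on low signals.

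JAZ8 (AT1G30135), a repressor of jasmonate signalling that jasmonate itself induces, read 276 and 185 in FG in space, 3799.7 and 3416 in FG on the ground, 93.7 and 99.3 in WT in space and 788 and 318 in WT on the ground. It fell in both genotypes, with a log2 difference of -3.99 in FG (adjusted p = 0.0104) and -2.38 in WT (adjusted p = 0.0457). FG and WT differed by 2.85 on the ground (adjusted p = 0.216). It was the only one of 25 jasmonate genes past the unadjusted threshold. The list had 9 positive and 16 negative members (46.2% and 53.8% of all probe sets) and a median of -0.50, which became 0.32 without WT-SD-gr replicate 2.

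Genes that make the translation machinery had small negative interactions in nearly the whole family. Of 122 cytosolic ribosomal proteins tested, 116 were negative and 6 positive (53.8% of all probe sets were negative), with a median of -0.69 and a range of -1.61 to 0.43. Only 2 passed the unadjusted threshold. The median response to space was 0.07 in FG and 0.74 in WT. Their mean log2 signal was 10.28 and 11.26 in FG in space, 10.41 and 10.91 in FG on the ground, 11.19 and 11.10 in WT in space, and 10.12 and 10.65 in WT on the ground. Both WT space arrays were above both WT ground arrays, whereas FG-SD-sp replicate 1 was below both FG ground arrays and replicate 2 above them. With 1 array left out the median ran between -0.21 (without FG-SD-sp replicate 1) and -1.19 (without FG-SD-sp replicate 2), and between -0.78 and -0.59 over the alternatives that kept all SD arrays. AT3G10610 was furthest from 0, with 484 and 1027 in FG in space, 557 and 745 in FG on the ground, 1152 and 1093 in WT in space and 337 and 333 in WT on the ground, with a difference of 0.13 in FG and 1.74 in WT, where it rose (adjusted p = 0.0428). It and the 2nd member past the threshold, AT5G03850 (-1.01), were picked out after their values were seen.

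Aminoacyl-tRNA synthetases, which charge tRNAs with their amino acids, had 30 negative members of 38, of which 4 passed (median -0.32). Of all probe sets, 53.8% were negative and 1.62% passed downward. Ribosome biogenesis factors had 12 negative members of 19 and none that passed, and their median of -0.40 turned to 0.37 without FG-SD-sp replicate 1 and was -1.09 without FG-SD-sp replicate 2. Among 30 genes of amino acid synthesis, 23 were negative and 3 passed (median -0.54). OMR1 (AT3G10050), the threonine deaminase that starts isoleucine synthesis, read 118 and 280.0 in FG in space, 99.2 and 398 in FG on the ground, 261 and 297 in WT in space and 15.8 and 32.9 in WT on the ground. IPMS2 (AT1G74040), which commits carbon to leucine, read 134 and 168 in FG in space, 161 and 158 in FG on the ground, 191 and 182 in WT in space and 47.0 and 74.4 in WT on the ground. Neither was above the floor with a present call in WT on the ground, so their interactions were -2.02 or lower and -1.40 or lower. PSP (AT1G18640), the last step of serine synthesis from phosphoglycerate, read 394 and 452 in FG in space, 396 and 1019 in FG on the ground, 427 and 420.2 in WT in space and 217 and 214 in WT on the ground, with FG-SD-gr replicate 2 far above the rest.

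Chaperones of the endoplasmic reticulum, which fold secreted proteins, had 9 negative members of 11, 2 of them past the unadjusted threshold, and the lowest median of any list (-1.25). Of all probe sets, 53.8% were negative and 1.62% passed downward. The calreticulin gene CRT2 (AT1G09210) read 1774 and 1114 in FG in space, 1222 and 2171 in FG on the ground, 3004 and 4499.9 in WT in space and 2029 and 568 in WT on the ground. CRT1 (AT1G56340) read 982 and 1087 in FG in space, 821 and 2652 in FG on the ground, 2155 and 3259.6 in WT in space and 1717 and 582 in WT on the ground. The WT space arrays were the highest for CRT2, and WT-SD-gr replicate 2 was the lowest array for both genes. Without that array the list's median was -0.44, and without WT-SD-gr replicate 1 it was -2.23.

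**Figure D4:**
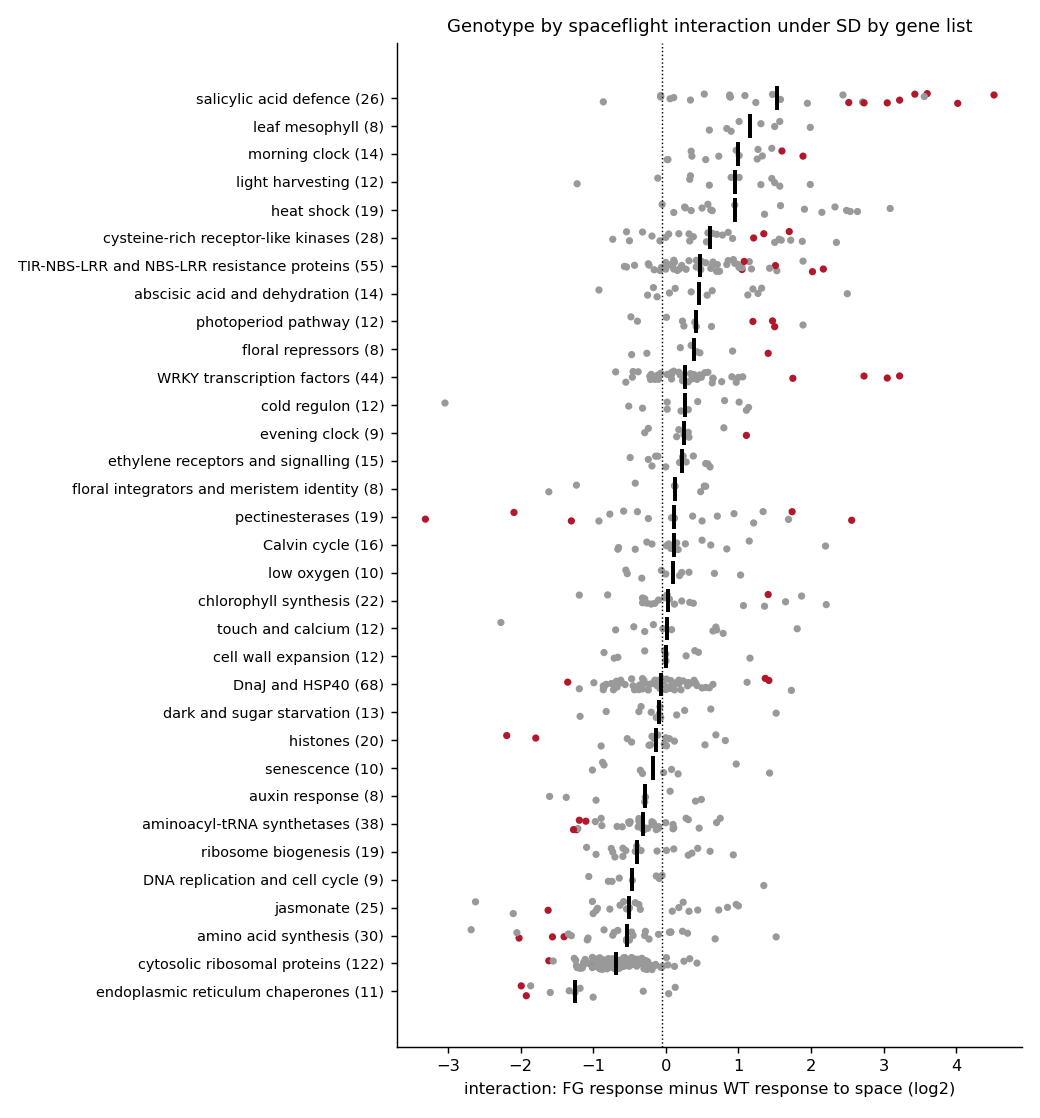
Interaction (log2, FG response minus WT response) of each gene, by gene list, for lists with at least 8 genes tested (number in parentheses). Red points are genes of at least 2-fold with an unadjusted p under 0.05, black bars are list medians and the dotted line is the median of all probe sets. Salicylic acid defence is at the top with a median of 1.53 and ER chaperones at the bottom with -1.25.

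For heat shock and for photosynthesis the values turned on 1 or 2 ground arrays. Of 31 heat shock genes 19 were tested, 18 of them positive (median 0.95, 46.2% of all probe sets were positive), and none passed the unadjusted threshold. HSFA2, a heat shock factor, read 58.7 and 4.5 in FG in space, 694 and 108 in FG on the ground, 1.1 and 32.2 in WT in space and 5871 and 919 in WT on the ground. HSP70 read 152 and 170.4 in FG in space, 4486 and 1390.2 in FG on the ground, 54.8 and 123 in WT in space and 22569 and 1937 in WT on the ground with a difference of -3.95 in FG (adjusted p = 0.111) and -6.10 in WT, where it fell (adjusted p = 0.0273). Both genes, picked out after their values were seen, were highest on WT-SD-gr replicate 1, as was the summed signal of the 28 heat shock genes with a probe set of their own, at 103384 there and 9245 to 27866 on the other 7 arrays. Without that array the list's median was -0.03. Without WT-SD-gr replicate 2 it was 2.40, and 9 probe sets were then called, among them HSP17.7 (5.07) and BAG6 (2.40).

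Light harvesting genes had a median of 0.95 (10 of 12 positive, none past the threshold) and leaf mesophyll markers one of 1.16 (8 of 8 positive, none past it). The mesophyll markers include light harvesting genes, so the lists overlap and are not separate results. Of all probe sets, 46.2% were positive. The mean log2 signal of the mesophyll markers was 13.10 and 12.83 in FG in space, 12.74 and 10.67 in FG on the ground, 12.62 and 12.53 in WT in space, and 11.60 and 13.47 in WT on the ground. Fewer mesophyll cells and less RNA of these genes per cell cannot be told apart in such samples. Without FG-SD-gr replicate 2 the mesophyll median was 0.17, and without WT-SD-gr replicate 2 the light harvesting median was -0.03. CAO (AT1G44446), which makes chlorophyll b, was the only one of 22 chlorophyll synthesis genes that passed, with 1174 and 881 in FG in space, 241 and 215 in FG on the ground, 782 and 696 in WT in space and 381 and 507 in WT on the ground. It rose in FG in space (2.16, adjusted p = 0.0113), against 0.75 in WT (adjusted p = 0.190).

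**Figure D5:**
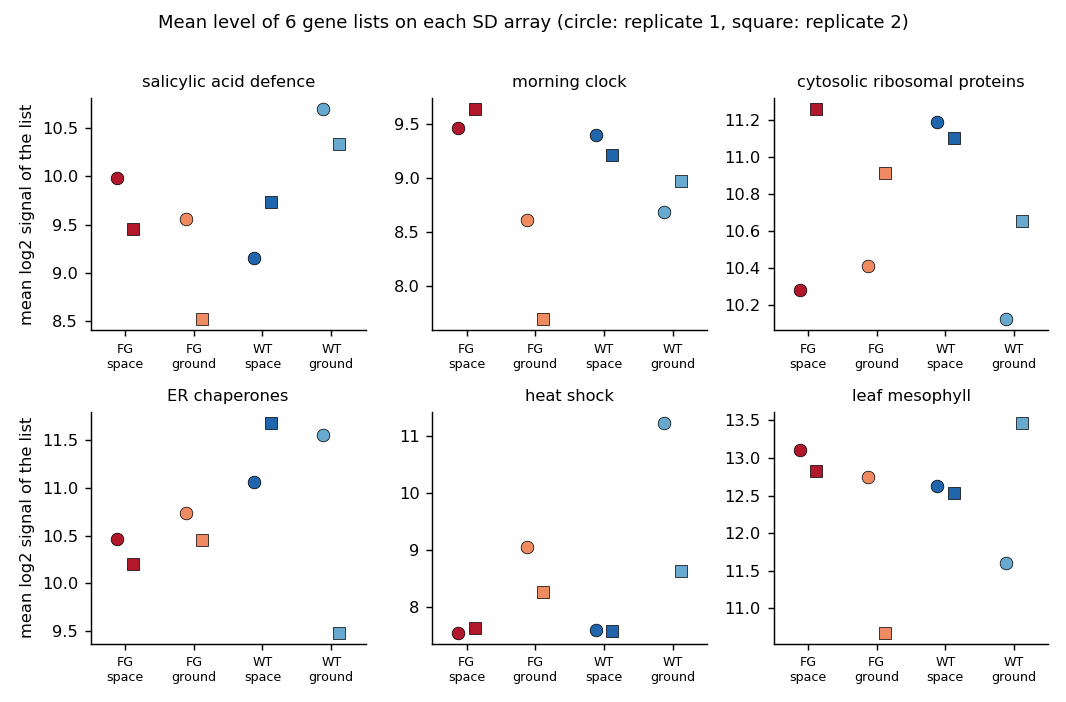
Mean log2 signal of 6 gene lists on each of the 8 arrays, by group (circle, replicate 1; square, replicate 2), each panel with its own axis that does not start at 0. Heat shock is highest on WT-SD-gr replicate 1 (11.24), leaf mesophyll lowest on FG-SD-gr replicate 2 (10.67), and ribosomal proteins part the 2 FG space arrays (10.28 and 11.26).

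Other genes were named because they were among the 15 with the smallest unadjusted p in each direction, and none of their interactions is a call. PME3 (AT3G14310), a pectin methylesterase, had the largest negative value of the 15, -3.31 ± 0.72, and read 237 and 336 in FG in space, 391 and 762 in FG on the ground, 986 and 985 in WT in space and 133 and 277 in WT on the ground. It lay lower in space than on the ground in FG (-0.95, adjusted p = 0.402) and rose in WT in space (2.36, adjusted p = 0.0447). Of 19 pectinesterases tested, 2 passed the unadjusted threshold upward and 3 downward (median 0.12), against 1.45% and 1.62% of all probe sets. GAUT7 (AT2G38650), of a galacturonosyltransferase complex that makes pectin, read 166 and 174 in FG in space, 213 and 298 in FG on the ground, 248 and 273 in WT in space and 150.5 and 154 in WT on the ground, and the actin-nucleating formin FH6 (AT5G67470) read 109.8 and 126 in FG in space, 183 and 143 in FG on the ground, 179.6 and 219 in WT in space and 100.4 and 96.7 in WT on the ground. In both genes FG space lay below FG ground and WT space above WT ground. Among positive values, the armadillo protein gene ARO4 (AT3G26600) read 926 and 869 in FG in space, 266 and 260.4 in FG on the ground, 515 and 592 in WT in space and 625 and 805 in WT on the ground and rose in FG in space (1.77, adjusted p = 0.0349). The class VIII myosin gene ATM2 (AT5G54280) read 128 and 88.9 in FG in space, 79.4 and 85.4 in FG on the ground, 75.7 and 84.9 in WT in space and 200.3 and 205 in WT on the ground and fell in WT in space (-1.34, adjusted p = 0.0345). AGP10 (AT4G09030), an arabinogalactan protein of the cell surface, read 1137 and 1132 in FG in space, 1175 and 1641 in FG on the ground, 333 and 475 in WT in space and 2059 and 2123 in WT on the ground with a difference of -0.29 in FG and -2.39 in WT, where it fell (adjusted p = 0.0166). PRF3 (AT5G56600), a profilin, had an interaction of 1.73.

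CHI (AT3G55120), the chalcone isomerase of flavonoid synthesis, read 166 and 159 in FG in space, 104 and 129 in FG on the ground, 66.1 and 125 in WT in space and 269.7 and 280.1 in WT on the ground with a difference of 0.49 in FG (adjusted p = 0.520) and -1.50 in WT, where it fell (adjusted p = 0.0450). It was the only one of 3 flavonoid genes tested that passed the unadjusted threshold. CYP707A4 (AT3G19270), which breaks down abscisic acid, read 333 and 237 in FG in space, 7.5 and 40.7 in FG on the ground, 112 and 93.9 in WT in space and 49.2 and 17.0 in WT on the ground. It rose in FG in space by at least 1.91 (adjusted p = 0.00279), and since it was under the floor on all ground arrays its interaction has no bound. TAG1 (AT2G19450), which makes triacylglycerol, read 211 and 157 in FG in space, 592 and 546 in FG on the ground, 489.6 and 376 in WT in space and 426 and 392 in WT on the ground and fell in FG in space (-1.64, adjusted p = 0.0195), with 0.07 in WT. CLT3 (AT5G12170), a transporter of the chloroplast envelope, read 534 and 532 in FG in space, 289 and 261 in FG on the ground, 749 and 632 in WT in space and 138 and 133 in WT on the ground with a difference of 0.96 in FG (adjusted p = 0.0831) and 2.35 in WT, where it rose (adjusted p = 0.00592). GolS3 (AT1G09350), a galactinol synthase of the cold response, was above the floor with present calls in WT in space only, at 190.0 and 172, and rose in WT by at least 1.11 (adjusted p = 0.0209). Every FG array of GolS3 was set to the floor, which adds no spread to that adjusted p. Of the SD groups, only WT in space, where GolS3 was high, met the filter on low signals.

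A histone H3 gene (AT5G10390) read 76.1 and 78.0 in FG in space, 154 and 156 in FG on the ground, 145 and 199 in WT in space and 91.7 and 107 in WT on the ground, with FG space below FG ground and WT space above WT ground. H3 genes are near-identical copies whose transcripts one probe set can share, so the gene behind this value is uncertain. Of 20 histone genes, 2 passed the unadjusted threshold downward and 0 upward (median -0.13), against 1.62% and 1.45% of all probe sets. The sirtuin SRT2 (AT5G09230) parted its arrays in the same way, with 108 and 114 in FG in space, 201 and 279.8 in FG on the ground, 205 and 138 in WT in space and 123 and 119.7 in WT on the ground. The other named genes from the unadjusted order were, on the positive side, AT3G02770, ATCG00220, CYP71B24 and AT2G28080, with interactions of 1.48, 1.47, 1.93 and 2.02. On the negative side they were AT1G22540 (-1.30), AT5G43140 (-1.37), AT5G62930 (-1.39), AT2G39130 (-1.37) and TOC64-III (-1.16). Of 68 DnaJ and HSP40 co-chaperones, 2 passed upward and 1 downward (median -0.06), against 1.45% and 1.62% of all probe sets. Of the other lists, those of abscisic acid, cold, ethylene, auxin, touch and calcium, low oxygen, antioxidant enzymes, wall expansion, Calvin cycle, starvation, senescence, DNA replication, root and guard cell had no member past the unadjusted threshold, and their medians lay between -0.48 and 0.46.

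The same interaction under long days (LD, 16 h of light and 8 h of dark), where no plant was heated, was set beside it. LD is not a setting with the transgene off. The paper reports FT higher in FG than in WT under LD too, and proposes that the promoter was active there without heating. The fitted interaction of FT was -1.61 under SD and -2.61 under LD (limma adjusted p = 0.682 under LD). Its 8 arrays are separate from those above. The interaction was called for 0 probe sets under SD and for 5 under LD (0.0350%), all positive there, and the difference between the 2 interactions was called for 0 probe sets (462 at an unadjusted p under 0.05 and 2-fold, 3.23%, smallest adjusted p 0.983). Across probe sets the SD and LD interactions had an r of 0.19, and of the 439 past the unadjusted threshold under SD, 272 had the same sign under LD. The share of all probe sets with the same sign was not counted, so the 272 cannot be read against it. Of the 14286 probe sets tested, 6930 had a positive interaction under LD. The salicylic acid list had a median of 2.07 under LD, with 24 of 26 members positive. LURP1 had an interaction of 3.43 under SD and 9.45 under LD (adjusted p = 0.00341 there), PCC1 4.52 and 7.29, WRKY70 3.22 and 4.83, and SARD1 4.02 and 2.66. The ribosomal proteins had a median of -0.69 under SD and 0.21 under LD, with 91 of 122 positive there. The morning clock list had 0.99 under SD and -0.12 under LD.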

How the data were processed

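ATH1 arrays were summarised by the authors with MAS 5.0 in R, package version not given in the sources used here. The deposited values are log2 signals, scaled by the authors to 1 trimmed mean signal (500) per array, with detection calls. Signals under 75 were raised to 75, and a probe set was tested if both arrays of at least 1 of the 8 groups exceeded 75 (14286 of 22810, of which 64 controls were not tested). Contrasts came from limma 3.58.1 in R 4.3.3, with 1 mean per group over 16 arrays, 8 residual and 2.75 prior degrees of freedom. Calls need 2-fold or more and an adjusted p (Benjamini-Hochberg) below 0.05. Values are bounds where a group lacked any array present above 75. A group set to 75 on both arrays adds no spread to the pooled estimate, so adjusted p-values of such genes lean on the floor. A gene high in a single group entered the test through that group. The number of arrays limits the precision.

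Members and lists were chosen with earlier results of these data known. Of the gene lists 30 came from general knowledge and 8 from annotation titles, each gene by its brightest probe set. Named genes were FT and HSP17.4, the 15 smallest unadjusted p in each direction at 2-fold, up to 4 members per list at p under 0.05 and 2-fold, and genes called in opposite directions. Others, those of the annotation lists included, were picked out after their values were seen. Alternatives changed the floor, filter, scaling, array weights, variance trend, replicate block, arrays in the fit, the test (the methods' t-test) and each array in turn.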

Additional observations from a re-analysis of the deposited data

Results flagged for a closer look

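For 18 of the named probe sets every space array lay above every ground array in FG and below in WT, or the reverse. The interaction was tested for each and missed the threshold after adjustment (adjusted p from 0.290 to 0.836). Space was above ground in FG and below it in WT for both SARD1 sets (4.02 and 3.49), WRKY70 (3.22), ARO4 (2.13), CHI (1.99), CYP71B24 (1.93), ATM2 (1.71), AT3G02770 (1.48) and ATCG00220 (1.47). Space was below ground in FG and above it in WT for PME3 (-3.31), CYP81D11 (-2.51, its WT ground arrays under the floor), the histone H3 gene AT5G10390 (-1.79), SRT2 (-1.56), FH6 (-1.47), AT5G62930 (-1.39), AT2G39130 (-1.37), GAUT7 (-1.34) and AT1G22540 (-1.30). Over all 14286 probe sets, 149 (1.04%) parted in the first way and 180 (1.26%) in the other. With 2 arrays a group no array can be tested as an outlier.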

How the results depend on the processing

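With 2 arrays a group and a median standard error of 0.50, single-gene interactions smaller than several-fold were hardly detectable, signals under 75 carry no fold, and each environment was 1 growth unit, so environment and unit cannot be told apart. Fits that leave out 1 array assume that the lone array of its group varies like the others.

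Under 27 alternatives, 16 of which leave out 1 array, no named probe set changed its direction. In 1287 of the refits the side of the threshold was kept, and in 9, over 6 probe sets, the interaction became a call. The count of interactions called, 0, was 3 with no filter, 1 with the present-call filter, 1 with a mean-variance trend, and 0 to 22 with 1 array left out (22 without FG-SD-gr replicate 1, 9 without WT-SD-gr replicate 2). The count past the unadjusted threshold, 439, was 291 to 1239 with 1 array left out, the lowest without WT-SD-sp replicate 1 and the highest without FG-SD-gr replicate 1. It was 1134 without WT-SD-gr replicate 2 and 953 without WT-SD-gr replicate 1.

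The FG response, 131 calls, gave 0 on the 8 SD arrays alone, 65 with no floor, 56 with no filter, 1336 with spike-in scaling (1284 up), 488 by the methods' t-test (3 after Benjamini-Hochberg adjustment) and 24 to 251 with 1 array left out. The WT response, 267 calls, gave 1 on the 8 SD arrays alone, 72 with no floor, 126 on log2(signal + 32), 106 with no filter, 134 with median centring, 140 after quantile normalization, 2861 with spike-in scaling (2770 up), 51 with array weights, 750 by the methods' t-test (1 after adjustment) and 2 to 727 with 1 array left out. FG against WT in space, 2 calls, gave 0 on the 8 SD arrays alone, with no floor and on log2(signal + 32), 4 with no filter and with a trend, 6 with array weights, 112 by the methods' t-test (0 after adjustment) and 0 to 2 with 1 array left out. FG against WT on the ground, 2 calls, gave 0 on the 8 SD arrays alone, on log2(signal + 32), with spike-in scaling and with array weights, 6 with no floor, 99 by the methods' t-test (0 after adjustment) and 0 to 212 with 1 array left out (31 without WT-SD-gr replicate 2). The SD minus LD difference, 0 calls, gave 4 with no filter and 0 to 3 with 1 array left out. The causes were not tested.

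Replicate numbers were not treated as pairs, since the labels do not say what a number marks. Correlations of replicate differences between SD groups were -0.24 to 0.17. They cannot show whether samples with the same number shared a plant, extraction or batch. With the replicate block the interaction had 0 calls and 454 past the unadjusted threshold, and FG against WT on the ground had 0 calls. Of 37 list medians, 14 kept their sign under every alternative.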
